A study of Homo sapiens with 8 samples.

Results

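The integrated stress response regulators described here are 10 genes that stand for the transcription factors, the feedback inhibitors and the effectors of that response: ATF4, ATF3, ATF5, CEBPB, DDIT3, TRIB3, PPP1R15A, CHAC1, DDIT4 and SESN2. They were chosen by gene symbol, with earlier results of these data known, and all 10 were found among the 16782 genes of the deposited table. Their mRNA was measured in CAKI1, a human cell line of renal carcinoma origin, in 4 control samples and in 4 samples stimulated for 24 h with hLcn-2 at 5 µg/mL. hLcn-2 is lipocalin-2 loaded with iron, used here as a recombinant protein made in bacteria. Cells of both groups had been kept without serum for 24 h beforehand, and the 4 samples of each group carry the numbers 1 to 4. The labels do not say whether these numbers stand for separate cultures, so the p-values measure the spread between these samples, which may be technical. The comparison asks whether mRNAs of the integrated stress response differed after hLcn-2.

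In the integrated stress response, kinases that sense amino acid shortage, heme shortage, double-stranded RNA or misfolded proteins in the endoplasmic reticulum phosphorylate the translation factor eIF2. Most translation then slows, while upstream reading frames in its mRNA let ATF4 protein be made, so that ATF4 is controlled largely at translation. ATF4 pairs with C/EBP proteins on composite DNA elements and turns on genes for amino acid supply, and also the genes that limit the response. Renal carcinoma cells meet such stress through poor supply of nutrients and oxygen.

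Short DNA motifs were looked for in the promoters of the regulators. RefSeq windows on GRCh38.p14 that span 250 bases before to 50 bases after a transcription start were at hand for all 10 genes, 18 windows in all. They were searched on both strands for the C/EBP-ATF composite element (TGATGNAA, where N is any base), the cyclic AMP response element (TGACGTCA), the AP-1 site (TGANTCA) and the CCAAT box (CCAAT). The sequences below show each regulator with one of the first 3 motifs, 30 bases around the match, and the upstream part of SESN2, which held none of these 3. Each is written 5′ to 3′ on the strand of its gene, with the matched letters in capitals.
CHAC1: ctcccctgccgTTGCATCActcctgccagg
ATF3: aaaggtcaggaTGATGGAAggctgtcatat
PPP1R15A: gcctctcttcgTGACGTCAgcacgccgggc
DDIT3: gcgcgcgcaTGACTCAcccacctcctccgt
ATF5: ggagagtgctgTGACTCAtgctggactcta
SESN2: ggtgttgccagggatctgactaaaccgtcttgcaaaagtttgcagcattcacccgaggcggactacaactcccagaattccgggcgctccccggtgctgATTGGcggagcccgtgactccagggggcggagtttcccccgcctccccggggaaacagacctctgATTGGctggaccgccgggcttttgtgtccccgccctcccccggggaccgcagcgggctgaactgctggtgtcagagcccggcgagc

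The stretch of CHAC1 lies at chr15:40953251-40953280 on the plus strand, and its capitals are the composite element read on the opposite strand, starting 209 bases before the transcription start. That of ATF3 lies at chr1:212565205-212565234 on the plus strand, with the composite element on the gene strand 191 bases before the start. CHAC1 and ATF3 were the 2 regulators of 10 with this element, which was present in 3.62% of all 35116 windows and in 2.94% of the 10965 tested genes that had a window. The cyclic AMP response element of PPP1R15A lies within chr19:48872352-48872381 on the plus strand, 58 bases before the start, and 1.85% of all windows and 3.77% of these genes held this motif. The AP-1 letters of DDIT3 are at chr12:57520735-57520764 on the minus strand and those of ATF5 at chr19:49928707-49928736 on the plus strand, against 7.71% of all windows and 7.21% of genes with a match. The capitals of SESN2, at chr1:28259268-28259517 on the plus strand, are 2 CCAAT boxes on the opposite strand, a motif found in 6 of the 10 regulators (also in ATF3, CEBPB, CHAC1, DDIT3 and DDIT4), in 34.6% of all windows and in 43.5% of genes. The windows of ATF4, CEBPB, TRIB3 and DDIT4 held none of the first 3 motifs. No matches of different motifs overlapped in the windows of the regulators. The transcription starts here are those of RefSeq, whereas the gene positions given below come from GENCODE and can begin at another start. The stretches of CHAC1, PPP1R15A, DDIT3 and ATF5 lie inside those gene positions, and the stretches of ATF3 and SESN2 lie before them. A match describes these letters and does not show that a factor binds there. Bases outside the windows were not searched, so a regulator without a match may hold the motif elsewhere.

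The QuantSeq 3′ libraries, sequenced from the polyadenylated end of transcripts, carried unique molecular identifiers (UMI), so that PCR copies were counted once. The normalized counts are on the CPM scale, that is, reads divided by a library size that the authors adjusted, so that the columns do not share one total. All of them were whole multiples of the worth of 1 read, from which 1501563 to 13953090 reads were recovered per control library and 2088266 to 11341137 per hLcn-2 library. Of 9 renal epithelial markers 7 were in the table, with a summed level of 1701 to 2414 in controls and 1877 to 2561 in hLcn-2 samples, while leukocyte markers summed to at most 4.76 and none of 4 endothelial markers was in the table. The mitochondrial ribosomal RNA RNR2 took between 3.31% and 7.10% of the values, with the highest share in both number-3 samples. In whole-culture RNA, a lower level per cell and fewer expressing cells cannot be told apart.

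Of the 10 regulators, CEBPB, CHAC1 and SESN2 had higher mRNA levels after hLcn-2 in 4 of 4 same-numbered pairs with log2 fold changes between 0.56 and 0.71. Their support depended on whether the sample number was taken into account. With limma on log2(normalized count + 1), 0 regulators had an adjusted p-value under 0.05, the threshold for a call, as did 0% of the 15593 genes tested, although 3 regulators (CEBPB, CHAC1 and SESN2) and 355 genes in all had an unadjusted p-value under 0.05. The quasi-likelihood test of edgeR without the number also called 0 regulators. Same-numbered samples deviated together, so the model was also fitted with the number as a block. This blocked limma fit called 2 regulators, CEBPB and CHAC1, where it called 0.282% of all genes and 0.218% of them as higher. The blocked edgeR test added SESN2, so that 3 regulators were called, against 1.49% of all genes. At an unadjusted p-value under 0.05, the blocked limma fit held 5 regulators, these 3 together with ATF4 and PPP1R15A, against 12.2% of all genes.

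Across the whole group the differences leaned upwards. Because the group was chosen with earlier results of these data known, the shares over all genes describe it and do not test it. The log2 fold change was above 0 for 8 regulators and below 0 for ATF3 and PPP1R15A, and its median was 0.27, against 0.00 for all genes tested. Levels were higher in all 4 pairs for 5 regulators (CEBPB, CHAC1, SESN2, ATF5 and TRIB3), against 9.93% of all genes, and lower in all 4 pairs for 0 regulators, against 10.9%. The other 5 had pairs of both signs. For 0 regulators did the 8 samples separate by group, where 0.891% of all genes were higher and 0.988% lower without overlap. The median difference of the regulators was 0.10, 0.15 and 0.12 in pairs 1 to 3 and 0.50 in pair 4. Pair 4 thus had the largest median, though not the largest difference of CEBPB or CHAC1, and its control had the fewest reads of all libraries. The part of depth in the difference of pair 4 was not tested. In all libraries thinned to 1501563 reads, the blocked fit called 1 regulator, CEBPB.

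**Figure D1:**
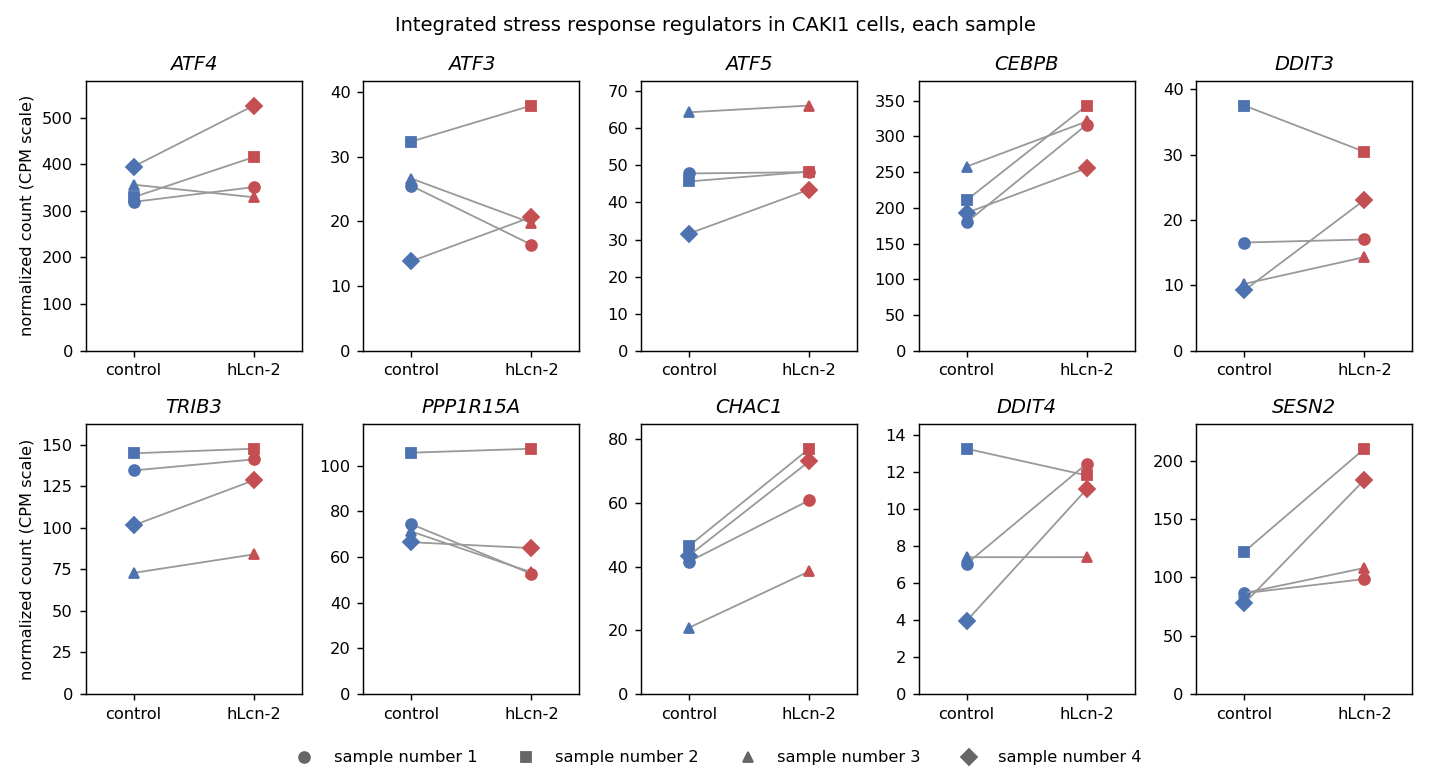
Normalized counts (CPM scale, linear axes from 0) of the 10 regulators in each of 4 control (blue) and 4 hLcn-2 (red) samples, with grey lines joining samples of the same number. All 4 lines go up for CEBPB, CHAC1, SESN2, ATF5 and TRIB3, yet the groups overlap in every panel.

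ATF4 had the narrowest range among controls, 1.24-fold from the lowest to the highest, of all the regulators. ATF4 (ENSG00000128272, chr22:39519695-39522683, plus strand) activates the genes of the response. Its normalized counts in controls 1 to 4 were 319, 329, 356 and 395. In hLcn-2 samples 1 to 4 they were 351, 415, 329 and 526. Only the samples numbered 2 and 4 exceeded every control, and pair 3 went down. The mean was 350.0 ± 33.9 in controls and 405 ± 88.3 after hLcn-2 (SD, n = 4). The log2 fold change of 0.19 ± 0.16 (SE) did not pass (limma, adjusted p-value 0.9999, and 0.410 with the block). Libraries held 600 to 4533 reads of ATF4.

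CEBPB differed most clearly from its own spread among the transcription factors. It encodes C/EBPβ, a partner of ATF4 on composite elements and a regulator of inflammatory genes, and is a single-exon gene (ENSG00000172216, chr20:50190830-50192668, plus strand). Controls 1 to 4 had 179.6, 211, 258 and 193 normalized counts. The hLcn-2 samples had 316, 343, 321 and 256. The groups nearly separated, as only control 3 and hLcn-2 sample 4 crossed. The mean was 210.3 ± 34.1 in controls and 309 ± 37.4 after hLcn-2 (SD, n = 4), and the log2 fold change was 0.56 ± 0.15 (SE) without the block. Adjusted p-values were 0.9999 for limma, 0.0317 for limma with the block and 0.00292 for edgeR with the block. Exons of the antisense gene CEBPB-AS1 overlap CEBPB outside its last 500 nt.

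The difference of CEBPB kept its size when a pair was left out, whereas its call did not always hold. Without the samples numbered 1, 2 and 3, the log2 fold change was 0.47, 0.51 and 0.64 and the adjusted p-value of the blocked limma fit 0.0848, 0.201 and 0.0768. These fits to 6 samples called 14, 3 and 0 of all genes. Without the samples numbered 4 the adjusted p-value was 0.0373. The log2 difference was 0.81, 0.70, 0.32 and 0.40 in pairs 1 to 4. Of the variation of CEBPB among the 8 samples (sum of squares of log2 values), 71.3% lay between the treatments, 19.1% between the numbers and 9.60% in the remainder. This was the largest treatment share among the 10 regulators. Such shares are not scaled for the 4 numbers against 2 treatments, so the number takes up more of the variation by itself.

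ATF3, ATF5 and DDIT3 are transcription factors downstream of ATF4, and no test passed for any of them after adjustment. ATF3 (ENSG00000162772, chr1:212565334-212620777, plus strand) is a stress-induced repressor of the same family. It had 25.5, 32.3, 26.6 and 13.8 normalized counts in controls 1 to 4 and 16.4, 37.9, 19.7 and 20.7 in the hLcn-2 samples. Pairs 1 and 3 went down and pairs 2 and 4 up, so that the log2 fold change was -0.06 ± 0.29 (SE; adjusted p-value 0.921 in limma with the block). Its sign turned in several alternative fits.

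ATF5 (ENSG00000169136, chr19:49928702-49933935, plus strand), a factor linked to the mitochondrial stress response, also has upstream reading frames. Its controls had 47.8, 45.7, 64.3 and 31.6 normalized counts and its hLcn-2 samples 48.2, 48.3, 66.2 and 43.5. Pairs 1 to 3 differed by at most 0.08 on the log2 scale and pair 4 by 0.45. The levels thus followed the sample number, which held 86.0% of the variation of ATF5 against 5.58% for the treatment. For ATF5 the blocked limma fit gave an adjusted p-value of 0.635. Exons of IL4I1 and NUP62 on the opposite strand and of MIR4751 on the same strand overlap those of ATF5 outside its last 500 nt.

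DDIT3 (ENSG00000175197, chr12:57516588-57521737, minus strand) encodes CHOP, which promotes cell death under lasting stress. The controls had 16.6, 37.5, 10.2 and 9.22 normalized counts. The hLcn-2 samples had 17.0, 30.4, 14.3 and 23.0. Both number-2 samples were the highest of their groups, and the control values spread over 4.07-fold. The pairs ranged from -0.29 in pair 2 to 1.23 in pair 4, and the log2 fold change was 0.36 ± 0.38 (SE; limma with the block, adjusted p-value 0.528). Control 4 held 14 reads of DDIT3, with a 95% Poisson interval (exact, for counting error only) of 5.04 to 15.5 normalized counts. MARS1 on the opposite strand overlaps the last 500 nt of DDIT3, and reads of both genes could be mixed if strand was not used in counting. MARS1 itself had a log2 fold change of 0.21. Exons of ENSG00000285133 on the same strand overlap those of DDIT3 outside its last 500 nt.

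The feedback inhibitors TRIB3 and PPP1R15A passed no test after adjustment. TRIB3 (ENSG00000101255, chr20:362835-397559, plus strand) encodes a pseudokinase that binds ATF4 and dampens it. Its controls had 134, 145, 72.8 and 101.4 normalized counts, and its hLcn-2 samples 141, 147, 83.9 and 129. Every pair went up, but by no more than 0.34 on the log2 scale. The sample number held 92.4% of the variation of TRIB3, the largest share among the regulators, and the treatment 4.8%. The log2 fold change was 0.16 ± 0.23 (SE), or ± 0.08 with the block, where the adjusted p-value of limma was 0.489.

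PPP1R15A (ENSG00000087074, chr19:48872212-48876059, plus strand) encodes GADD34, which brings a phosphatase to eIF2 and so ends the response. It had 74.5, 106, 71.2 and 66.5 normalized counts in controls 1 to 4. After hLcn-2 it had 52.6, 107, 53.3 and 63.9. In samples 1, 3 and 4 the hLcn-2 value lay below all controls, whereas sample 2 was the highest of all 8. The log2 fold change was -0.23 ± 0.23 (SE), and with the block the adjusted p-value was 0.399 for limma and 0.346 for edgeR. PPP1R15A thus had the lowest log2 fold change of the 10 regulators. Its unadjusted p-value was 0.328 in limma without the block. With the block it was 0.0445 for limma and 0.0410 for edgeR, and neither passed after adjustment.

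Of the 3 effectors, CHAC1 showed the most even difference. CHAC1 (ENSG00000128965, chr15:40952962-40956512, plus strand) encodes an enzyme that breaks down glutathione, the thiol antioxidant of the cell. The controls had 41.6, 46.5, 20.8 and 43.5 normalized counts. The hLcn-2 samples had 60.8, 77.1, 38.5 and 73.1. Samples 1, 2 and 4 lay above every control, and number 3 was the lowest of both groups. The 4 pairs differed by 0.54, 0.72, 0.86 and 0.74 on the log2 scale. Means of 38.1 ± 11.7 and 62.4 ± 17.3 (SD, n = 4) gave a log2 fold change of 0.71 ± 0.27 (SE), or ± 0.10 with the block.

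For CHAC1 limma gave an adjusted p-value of 0.9999 without and 0.0206 with the block, and edgeR with the block gave 0.00197. Treatment held 41.7% of its variation and the sample number 57.3%, which left 1.06%, the smallest remainder among the regulators. Without the samples numbered 2 or 3, the log2 fold change was 0.71 or 0.66 and the adjusted p-value in the blocked limma fit 0.0988 or 0.0852, where 3 or 0 genes were called in all. It stayed under 0.05 without those numbered 1 (0.0259) or 4 (0.0373). In thinned libraries it was 0.0550. Leaving out control 3 alone, the lowest sample, lowered the log2 fold change to 0.45.

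SESN2 (ENSG00000130766, chr1:28259518-28282491, plus strand) encodes a leucine sensor that restrains mTORC1, the kinase complex for growth. Its controls had 86.4, 122, 86.5 and 77.7 normalized counts. The hLcn-2 samples had 98.6, 210.5, 108 and 184. Samples 2 and 4 stood far above the controls, whereas samples 1 and 3 remained below control 2. Pairs differed by 0.19, 0.78, 0.32 and 1.23 on the log2 scale, all upwards. The log2 fold change was 0.63 ± 0.24 (SE), and with the block the adjusted p-value was 0.0820 for limma and 0.0150 for edgeR. In the blocked limma fit the adjusted p-value was 0.0259, 0.315, 0.172 and 0.124 without the samples numbered 1, 2, 3 and 4, and 0.179 with thinned libraries.

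DDIT4 (ENSG00000168209, chr10:72273919-72276036, plus strand) encodes REDD1, another inhibitor of mTORC1, and had the lowest counts of the regulators. Controls had 7.04, 13.3, 7.40 and 3.95 normalized counts and hLcn-2 samples 12.5, 11.8, 7.41 and 11.1. Number 3 had nearly the same level in both groups, pair 2 went down and pairs 1 and 4 went up. Control 4 rested on 6 reads, with a 95% Poisson interval of 1.45 to 8.60 normalized counts. At this depth the log2 fold change of 0.47 ± 0.31 (SE) was not distinguishable from 0 (adjusted p-value 0.446 in limma with the block).

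**Figure D2:**
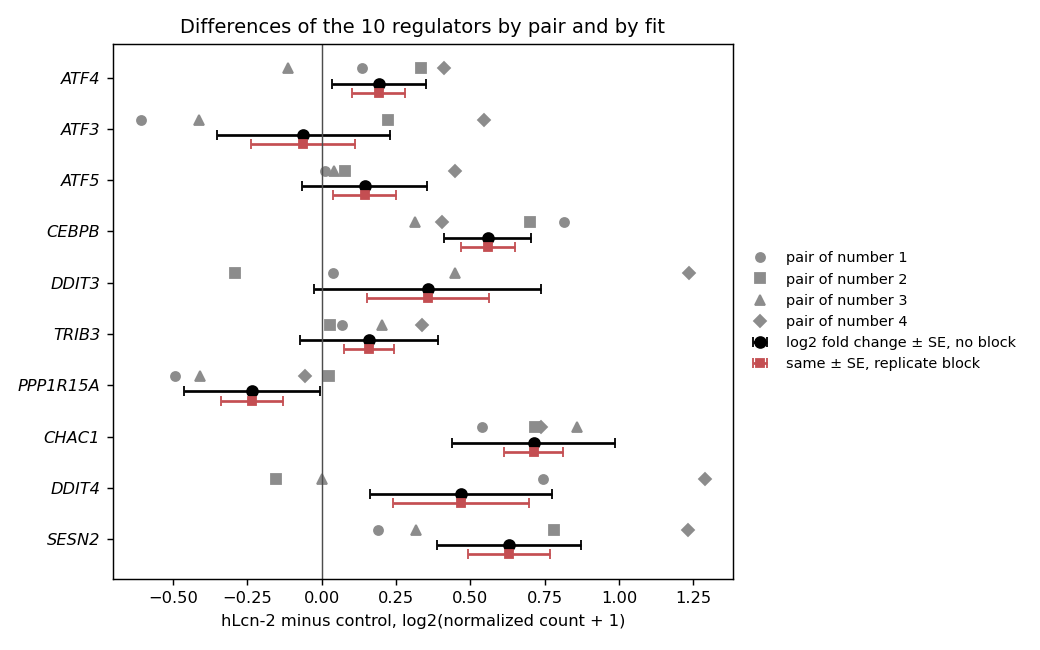
Differences of the 10 regulators between hLcn-2 and control on the log2(normalized count + 1) scale. Grey symbols are the 4 same-numbered pairs, black points the log2 fold change ± SE without the block and red squares the same value ± SE with the block. The 4 pairs of CHAC1 lie close together, between 0.54 and 0.86, while those of DDIT3 span from -0.29 to 1.23.

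Whether paralogs or partners of the regulators moved alongside was examined by log2 ratios within each sample, in which the scaling of a library largely cancels. For 6 ratios the groups were compared by two-sided exact permutation tests over 70 regroupings, with 0.0286 as the smallest possible p-value. A paired exact test, which flips the signs of the 4 pair differences and cannot go below 0.125, was added after seeing the data. CHAC2 is the paralog of CHAC1. The log2 ratio of CHAC1 to CHAC2 was 2.55, 1.88, 2.45 and 1.72 in controls and 3.19, 2.62, 3.15 and 2.67 in hLcn-2 samples. Thus, the groups did not overlap for this ratio, and the difference of 0.76 gave an exact p-value of 0.0286 (0.171 adjusted over the 6 ratios; paired exact p = 0.125). CHAC2 had few reads, 7 in its lowest library.

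SESN2 against its paralog SESN1 behaved much the same in direction. The log2 ratio was 2.72, 3.41, 2.68 and 2.86 in controls and 3.02, 3.88, 3.46 and 4.32 after hLcn-2. It was higher in 4 of 4 pairs, and hLcn-2 sample 1 lay below control 2. The difference of 0.75 had an exact permutation p-value of 0.0571 (0.171 adjusted; paired exact p = 0.125). SESN1 alone had a log2 fold change of -0.12 ± 0.21 (SE).

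The other 4 ratios differed less. PPP1R15A against its constitutive paralog PPP1R15B was 0.13 to 0.30 in controls and -0.50 to 0.30 after hLcn-2, a difference of -0.29 (exact permutation p = 0.171, 0.343 adjusted). TRIB3 against TRIB1 differed by -0.26 (exact permutation p = 0.571, 0.823 adjusted) and was lower in every pair, by 0.11 to 0.45 (paired exact p = 0.125), with the number-3 samples far below the rest at 0.10 and -0.13. CEBPB against CEBPG, another partner of ATF4, differed by 0.13 (exact permutation p = 0.686, 0.823 adjusted). CEBPG on its own had a log2 fold change of 0.43 ± 0.23 (SE), and with the block limma gave it an adjusted p-value of 0.134 and edgeR 0.0344. ATF5 against ATF4 differed by -0.05 (exact permutation p = 0.914, 0.914 adjusted).

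**Figure D3:**
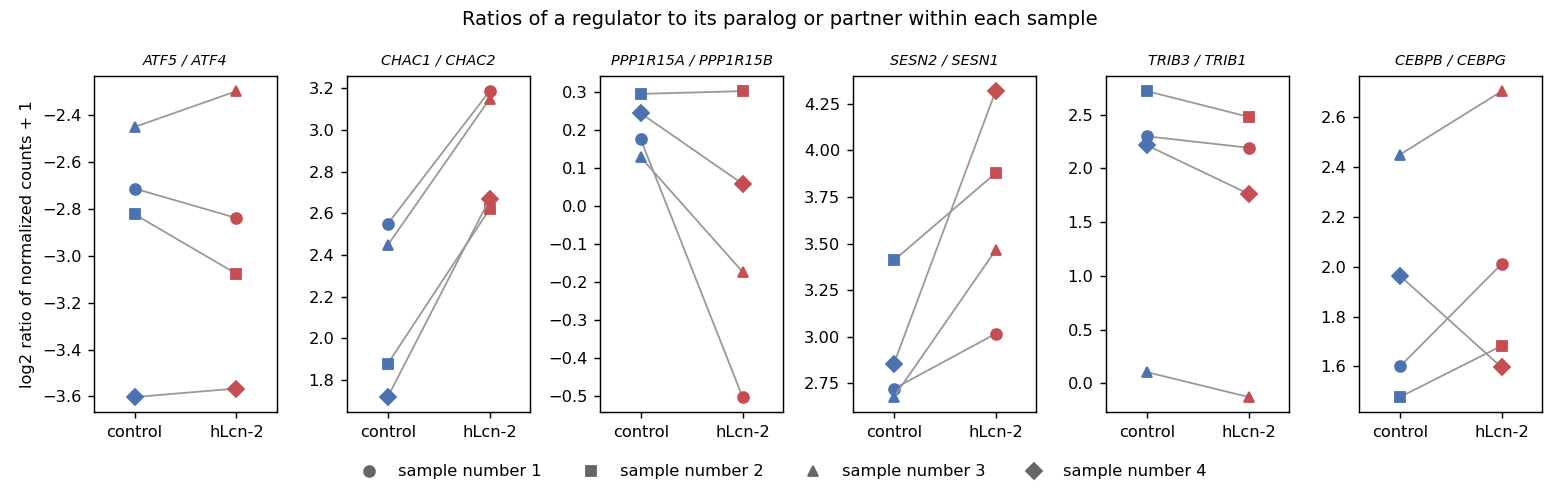
Log2 ratios of a regulator to its paralog or partner within each sample, in 4 control (blue) and 4 hLcn-2 (red) samples, with lines joining same-numbered samples and a separate linear axis per panel. The ratio of CHAC1 to CHAC2 is at most 2.55 in controls and at least 2.62 after hLcn-2, while the other 5 panels overlap.

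Targets of ATF4 were listed by hand with earlier results of these data known, and 40 of 43 were tested. In this list 37 had a log2 fold change above 0 and 3 below, and the median was 0.32. Limma called 0 of them without the block and 9 with it, all higher (0.218% of all genes), and edgeR with the block called 17, all higher (1.49% of all genes in either direction). In 23 of the 40 genes all 4 pairs were higher, against 9.93% of all genes, and in 6 the hLcn-2 samples lay above every control, against 0.891%. Without the samples numbered 2 or those numbered 3, the blocked limma fit called 0 of the 40, and 3 or 0 of all genes, while the median of the list was 0.32 or 0.42.

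Amino acid synthesis held the highest median of the target groups. All 10 tested genes of this group were above 0, with a median of 0.47, and with the block limma called PSAT1 of serine synthesis (0.50 ± 0.25), the mitochondrial folate enzymes SHMT2 (0.66 ± 0.21) and MTHFD2 (0.67 ± 0.19) and the alanine aminotransferase GPT2 (0.55 ± 0.19; log2 fold changes ± SE). Their adjusted p-values lay between 0.0174 and 0.0373. Asparagine synthetase ASNS had a larger log2 fold change of 0.78 ± 0.18 (SE) but an adjusted p-value of 0.0569, as its pairs ranged from 0.07 to 1.41. In edgeR with the block ASNS was called at 0.00557.

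Of the amino acid transporters, 6 of 7 were above 0 with a median of 0.42. SLC7A11, the cystine importer that supplies glutathione synthesis, had 512 ± 90.4 normalized counts in controls and 847 ± 157 after hLcn-2 (SD, n = 4), a log2 fold change of 0.72 ± 0.17 (SE; limma with the block, adjusted p-value 0.0150). The genes for tRNA charging and export were above 0 in 12 of 12 cases, at a lower median of 0.22. IARS1, the isoleucyl-tRNA synthetase, and XPOT, which exports tRNA, were called there with log2 fold changes of 0.57 ± 0.23 and 0.47 ± 0.14 (SE; adjusted p-values 0.0373 and 0.0400 in limma with the block). Of 11 secreted and other targets, 9 were above 0. VEGFA, the vascular growth factor, had 0.59 ± 0.20 and INHBE, an inhibin subunit, 1.02 ± 0.24 (log2 fold change ± SE), with adjusted p-values of 0.0251 and 0.0317 in limma with the block.

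Upstream of ATF4, the eIF2 machinery taken as a whole did not lean to a side. Of 21 genes for eIF2 kinases, their regulators, the subunits of eIF2 and eIF2B, and the phosphatase, 11 were above and 10 below 0. Their median was 0.01, and limma called 0 with or without the block. An unadjusted p-value under 0.05 was reached by 5 with the block, against 12.2% of all genes. Without the block it was reached by 1, against 2.28% of all genes. Among the 4 kinases, EIF2AK3, which encodes the endoplasmic reticulum sensor PERK, stood out with 31.8 ± 8.83 normalized counts in controls and 46.0 ± 11.3 after hLcn-2 (SD, n = 4). Its log2 fold change was 0.53 ± 0.23 (SE), and with the block the adjusted p-value was 0.0849 for limma and 0.0162 for edgeR. The other 3 kinases had log2 fold changes of -0.02 (EIF2AK1), -0.09 (EIF2AK2) and -0.02 (EIF2AK4). Next in size were the GCN2 inhibitor IMPACT at 0.30 ± 0.18 and the mitochondrial stress relay DELE1 at 0.29 ± 0.18 (log2 fold change ± SE). Neither passed a test after adjustment. Both belong to the 5 kinase regulators, of which 3 were above and 2 below 0, with a median of 0.29. In the blocked limma fit 3 of these 5 had an unadjusted p-value under 0.05. The median was -0.02 for the 4 kinases, -0.004 for the 8 subunits of eIF2 and eIF2B and 0.06 for the 4 phosphatase genes.

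The ATF6 and XBP1 arms of the unfolded protein response act beside PERK and induce chaperones. Here 16 of 17 genes were above 0, with a median of 0.23. All 4 pairs were higher in 10 genes, against 9.93% of all genes, but limma called 0 with or without the block. In the blocked limma fit 10 of the 17 reached an unadjusted p-value under 0.05, against 12.2% of all genes. With the block edgeR called 4, all higher, against 1.49% of all genes in either direction. These were EDEM1, DNAJB9, PDIA4 and HSPA5, the gene of the chaperone BiP (log2 fold change 0.29 ± 0.17, SE). The genes with the largest log2 fold changes were EDEM1, of the disposal of misfolded proteins, at 0.68 ± 0.22, the co-chaperone DNAJB9 at 0.56 ± 0.26 and the disulfide isomerase PDIA4 at 0.38 ± 0.19 (SE). Their adjusted p-values in limma with the block were 0.0560, 0.0569 and 0.120, and in edgeR with the block 0.00792, 0.0117 and 0.0383.

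Genes linked to CHOP and cell death had 5 of 6 log2 fold changes above 0 with a median of 0.16. Limma and edgeR with the block called 0 of them. In these 2 tests 1 and 2 had an unadjusted p-value under 0.05, against 1900 and 2086 of the 15593 genes tested. BBC3, which encodes the death factor PUMA, had 0.30 ± 0.15, BCL2L11, which encodes BIM, 0.16 ± 0.30 and the death receptor gene TNFRSF10B 0.16 ± 0.16 (log2 fold change ± SE). The 5 genes above 0 include the survival gene BCL2 at 0.32 ± 0.27. The death gene PMAIP1 was the 1 below 0, at -0.12 ± 0.34. The count of signs therefore mixes genes of opposite roles. Among 21 bZIP genes that can pair with the regulators, 13 were above and 8 below 0, with a median of 0.05. Limma called 0 of these with the block, where 6 had an unadjusted p-value under 0.05, against 12.2% of all genes. With the block edgeR called 2, CEBPG and the small MAF gene MAFG (0.33 ± 0.16), against 1.49% of all genes. JUND, of the AP-1 family, had 0.34 ± 0.15 (limma with the block, adjusted p-value 0.154).

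The genes of mTORC1 regulation, the pathway that SESN2 and DDIT4 restrain, leaned to neither side. The list mixes genes that promote mTORC1 with genes that restrain it, so the signs do not describe the activity of the pathway. Several of its genes had only a few normalized counts. Of 19 tested genes 9 were above and 10 below 0, with a median of -0.04, and 0 were called by limma or edgeR with the block. In these 2 tests 0 had an unadjusted p-value under 0.05, against 1900 and 2086 of the 15593 genes tested. The translation repressor EIF4EBP1 had 0.34 ± 0.33, the GATOR2 subunit MIOS -0.22 ± 0.17 and the DDIT4 paralog DDIT4L -0.32 ± 0.60 (log2 fold change ± SE). The paralogs of the regulators were even, with 5 of 10 above 0 and a median of 0.00. Limma called 0 of them with the block, where 2 had an unadjusted p-value under 0.05, against 12.2% of all genes. With the block edgeR called 1, CEBPG, against 1.49% of all genes. CEBPG also stands in the ATF4 target and bZIP lists, so its call there is the same call. TRIB1 had 0.42 ± 0.42 and was higher in 4 of 4 pairs (limma with the block, adjusted p-value 0.188).

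**Figure D4:**
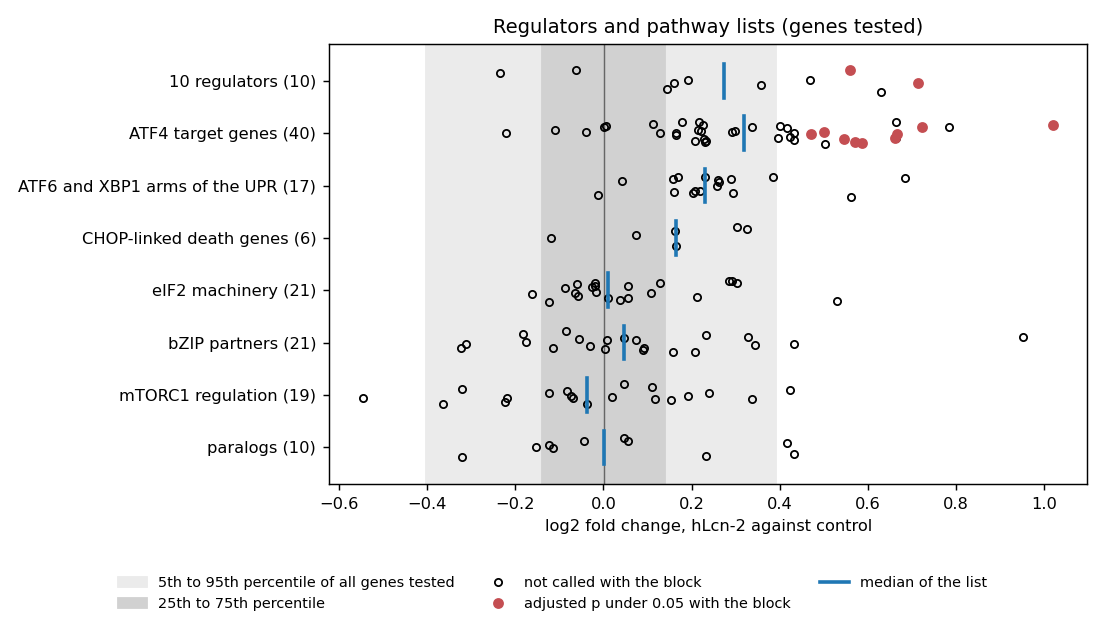
Log2 fold changes (hLcn-2 against control) of the 10 regulators and of the genes tested in 7 pathway lists, with the number of genes in brackets, list medians as blue bars, and the spread of all 15593 genes in grey. Filled red points mark genes with an adjusted p-value under 0.05 in limma with the block, 2 regulators and 9 ATF4 targets.

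The regulators did not vary as a single unit over the 8 samples. On the log2(normalized count + 1) scale the highest Pearson correlations among their 45 pairings were between DDIT3 and DDIT4 (r = 0.84), ATF3 and PPP1R15A (0.84) and TRIB3 and CHAC1 (0.81), and the lowest was between ATF5 and TRIB3 (-0.46). ATF4 correlated most with SESN2 (0.64) and hardly with DDIT3 (0.14). These 8 samples share treatment and number, so r describes both together.

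Outside the group, the gene with the most similar profile to each regulator was taken from 8997 genes with a mean of at least 10 normalized counts, by Pearson's r over the 8 samples. These were RDH11 for ATF4 (r = 0.94), TJAP1 for ATF3 (0.95), ABCA5 for ATF5 (0.98), HKDC1 for CEBPB (0.95), USP8 for DDIT3 (0.98), MZT1 for TRIB3 (0.99) and MID1 for PPP1R15A (0.95). For the effectors they were TSN for CHAC1 (0.97), TM9SF4 for DDIT4 (0.94) and HSPA13 for SESN2 (0.97). Each r is the highest of 8997 over only 8 samples, and choosing the highest makes r large by itself. Such an r does not show that 2 genes are linked, and none was tested. HKDC1, a hexokinase-like gene, had 338 ± 37.8 normalized counts in controls and 447 ± 59.5 after hLcn-2 (SD, n = 4). With the block its adjusted p-value was 0.0620 for limma and 0.0150 for edgeR. The Hsp70-family gene HSPA13 had a log2 fold change of 0.38 ± 0.16 (SE), with adjusted p-values of 0.110 for limma and 0.0394 for edgeR with the block.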

How the data were processed

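mRNA was measured by 3′ sequencing (75 cycles) in 4 control and 4 hLcn-2 samples. A legend of the study names fewer samples per group than were deposited, without saying which, and all 8 were used. The authors used STAR for alignment to GRCh38, collapsed reads that shared a UMI and took gene counts from HTSeq. Versions are not given in the sources used here, nor whether strand was used. As deposited, the unit is a signal of normalized counts on the CPM scale, and each of the 134256 values was a whole number of reads within 0.05.

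The main test was that of limma 3.58.1 (R 4.3.3), two-sided and with an intensity trend, on values transformed as log2(normalized count + 1). It covered 15593 genes, those reaching 1 CPM in 2 or more samples, and Benjamini-Hochberg adjustment ran over all of them. This scale understates changes of low genes. A gene was called at an adjusted p-value under 0.05. Same-numbered samples deviated together (correlations across genes of 0.48, 0.59, 0.61 and 0.31 for numbers 1 to 4), and the number was fitted as a block in an alternative. Alternatives included edgeR 4.0.16 and DESeq2 1.42.0 on recovered reads. Models were tested on simulated data. Positions come from GENCODE 44 on GRCh38, and overlapping exons were examined for the 10 regulators only.

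The regulators and lists were chosen with earlier results of these data known. Some genes stand in several lists. Named are all regulators, the list genes called by limma with or without the block, the genes of the ratios and the most similar gene of each regulator. Up to 3 genes per list with the largest change at a mean of at least 10 normalized counts are named too. List genes called by edgeR alone are not all named. MAFG, HSPA5, BCL2, PMAIP1, the other eIF2 kinases and MARS1 were named after their values were seen, where a count or an overlap turned on them.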

Additional observations from a re-analysis of the deposited data

How the results depend on the processing

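Samples numbered 1 to 4 were paired by their labels, and the replicate block decided the calls. Without it, limma called 0 regulators and 0 pathway list genes in every alternative run, with 0 regulators also in edgeR without the block. With it, the number of regulators called was 2 in limma, 3 in edgeR, 3 in DESeq2, 1 with thinned reads, 1 with a pseudocount of 0.1, 2 with a pseudocount of 5, 2 with a filter on a mean of 10, 2 with scaling to the column total, and 0 without the intensity trend. The pathway list genes called numbered 9, 23, 23, 5, 3, 9, 15, 7 and 0 in the same order, and the ATF4 targets among them 9, 17, 17, 5, 3, 9, 13, 7 and 0. The combinations of the block with a pseudocount, the mean filter or the column total, leaving out samples for overlaps and ratios, and the paired exact test of the ratios, were chosen after seeing the data. Leaving out samples, with or without the block, gave 0 to 2 regulators, 0 to 9 list genes and 0 to 8 ATF4 targets called. The number of regulators whose groups do not overlap was 1 with scaling to the column total and 0 to 2 when one sample was left out. Directions changed for small differences. The log2 fold change of ATF3 was 0.044 with thinned reads and the block, 0.054 to 0.12 with the block but without the samples numbered 3 or 1, and 0.082 to 0.085 without hLcn-2 sample 1 or control 2, within a range from -0.31 to 0.12 when samples were left out. Under the same omissions ATF5 ranged from -0.031 to 0.30, TRIB3 from -0.035 to 0.34, the log2 ratio of ATF5 to ATF4 from -0.28 to 0.16, that of TRIB3 to TRIB1 from -0.83 to 0.31 and that of CEBPB to CEBPG from -0.11 to 0.32. List medians ranged from -0.047 to 0.073 for the eIF2 machinery, from 0.070 to 0.32 for the CHOP-linked genes and from -0.047 to 0.13 for the paralogs. The other 7 regulators and the other 3 ratios kept their direction in every alternative run, but some moved by over 1.5 times. Among omissions, DDIT3 ranged from 0.064 (without the samples numbered 4) to 0.76 (without control 2), ATF4 from 0.059 (without hLcn-2 sample 4) to 0.29, PPP1R15A from -0.46 (without hLcn-2 sample 2) to -0.090 (without control 2), and CHAC1 from 0.45 (without control 3) to 0.92. DDIT4 was 0.20 without the samples numbered 4 and 0.98 with thinned reads and the block, and DDIT3 was 0.14 in edgeR with the block. The cause of these changes was not tested. DDIT4, DDIT3 and ATF3 had the fewest reads, with 6, 14 and 21 in control 4.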
